A study of Homo sapiens with 10 samples.

Results

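CYBRD1, which encodes a ferric reductase of the plasma membrane, and 9 further genes of cellular iron handling were followed by RNA-seq in U266, a long-established human myeloma line of plasma cell type. The 10 genes were found by name among 60574 genes of the deposited count table, and all 10 were present. CYBRD1 was picked because its RNA was far lower with the EFNB2 guide in this same comparison, and the others because they import, store, export or sense iron, with earlier results of these data known. Their differences between the guides are therefore given as a description with standard errors. Where a gene is said to have passed the threshold of the test over all genes, that too only describes it and supports nothing.

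Cells with the EFNB2 guide carried dCas9-VPR, a cutting-dead Cas9 joined to a set of transcriptional activators, together with a guide RNA aimed at the start of EFNB2. Control cells carried the same dCas9-VPR with a scrambled guide that has no target. Both populations received dCas9-VPR by lentivirus and the guide by a further transduction, were selected and grown on in blasticidin and puromycin, and got no other treatment. Each population gave 5 libraries, lettered A to E, and the labels do not say whether these came from separate cultures or transductions, so spreads between libraries may be technical. All p-values and standard errors below take the libraries as independent. They may thus not cover differences that would arise between separately made populations.

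Iron enters most cells on transferrin, whose receptor carries it into endosomes. There a ferric reductase turns it into ferrous iron and a carrier moves it into the cytosol, where ferritin, a shell of heavy and light chains, stores what is not used. Ferroportin is the known exporter. The RNA-binding proteins IRP1 and IRP2 bind a short hairpin, the iron-responsive element, when iron is scarce. Binding near the start of a messenger RNA blocks its translation, as in ferritin and ferroportin, and binding near its end protects the RNA from decay, as in the transferrin receptor. Myeloma cells make large amounts of antibody and are known to use iron for growth.

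The elements of the members are shown because the place of an element bears on whether that control acts on RNA stability or on translation. The search read GENCODE 29 transcripts (GRCh38) for the letters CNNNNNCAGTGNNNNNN on the transcript strand, in which the 5 bases after the first C pair with the last 5, G with U allowed. It found the element in 4 of the 10 genes. These are the ferritin, ferroportin and transferrin receptor genes, long known to carry it, so nothing is read from that number. A match anywhere in a transcript, coding part included, was found in 1.48% of 19669 protein-coding genes. Each line gives 30 bases, 5′ to 3′, in the letters of the DNA strand that matches the RNA, with the 6-base loop in capitals.
FTH1, 5′ UTR, chr11:61967573-61967602, minus strand: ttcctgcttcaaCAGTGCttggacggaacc
FTL, 5′ UTR, chr19:48965335-48965364, plus strand: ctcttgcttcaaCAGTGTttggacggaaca
SLC40A1, 5′ UTR, chr2:189580660-189580689, minus strand: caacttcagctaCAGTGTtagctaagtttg
TFRC, 3′ UTR, chr3:196050978-196051007, minus strand: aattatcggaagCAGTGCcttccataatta
TFRC, 3′ UTR, chr3:196050574-196050603, minus strand: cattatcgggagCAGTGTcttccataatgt
TFRC, 3′ UTR, chr3:196050509-196050538, minus strand: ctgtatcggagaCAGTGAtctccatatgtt
TFRC, 3′ UTR, chr3:196050462-196050491, minus strand: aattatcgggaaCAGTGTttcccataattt
The ferritin and ferroportin elements found lie in the 5′ UTR and the 4 found in TFRC in the 3′ UTR. In GENCODE 29 the SLC40A1 element lies in 1 of 5 coding transcripts of the gene. Each TFRC element lies in 3 of 4, that of FTH1 in 7 of 8 and that of FTL in 1 of 1. Counts by gene do not show which transcripts are present. A match in letters does not show that a protein is bound there, and for the other 6 genes it says only that these letters were not found. The search misses elements with a loop other than CAGTGN or an imperfect stem. A gene without a match, SLC11A2 among them, may thus still carry one, and TFRC may hold more than the 4 listed.

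The libraries held 47268072 to 56513548 counts. EFNB2 itself stood at 1.21 ± 0.198 CPM in EFNB2-guide cells and 0.119 ± 0.0509 CPM in control cells (SD, n = 5 each), with p = 0.00794 in a two-sided exact permutation test, the smallest that its 252 splits allow. CPM are counts scaled to a common library size with TMM factors, which even out differences in composition between libraries. All 10 plasma cell markers looked at had at least 10 counts in each library, with a summed level of 8531 to 8933 CPM with the EFNB2 guide and 8940 to 10121 CPM with the control guide. Marker lists of macrophages and red cell precursors, cell types that handle much iron, summed to at most 0.692 and 0.523 CPM in any library, and the red cell genes ALAS2 and AHSP had no count. The gut list stayed at or below 0.932 CPM. Lists for T cells (11.5 to 12.7 CPM with the EFNB2 guide, 8.96 to 10.4 with the control guide) and fibroblasts (25.5 to 29.9 with the EFNB2 guide and 19.96 to 27.1 CPM in controls) were low and came mainly from TRAC and COL1A1.

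Of the 10 genes, 9 passed the filter on low counts and were tested, and STEAP3 did not. With an adjusted p of 0.05 as threshold (edgeR's quasi-likelihood test over 17834 genes), 6 of the 9 were lower and 1 was higher with the EFNB2 guide, where 22.6% of all tested genes were called lower and 22.8% higher, 45.4% in all. In the same 7 genes the 5 libraries of one guide all lay on one side of the 5 of the other, a pattern shown by 30.3% of tested genes. Because the genes were chosen with this comparison known, nothing is read from these counts. The median log2 fold change of the 9 genes was -0.14, against 0.01 over all tested genes. In RNA from bulk cultures, fewer cells that express a gene and less RNA per cell cannot be told apart.

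**Figure D1:**
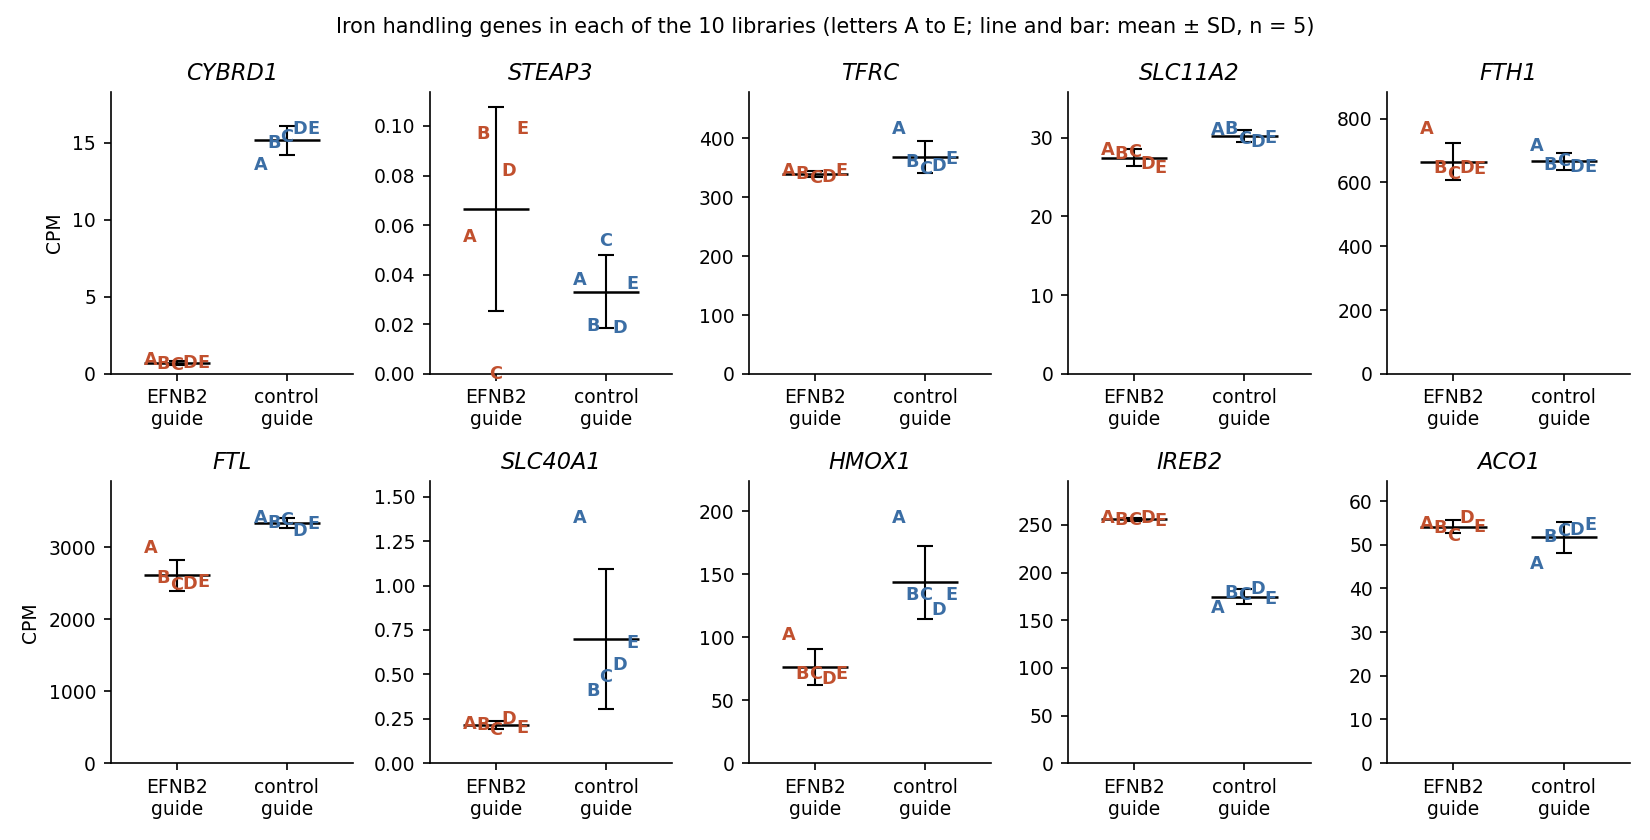
Level of each iron gene (CPM, axes from 0) in the 5 EFNB2-guide libraries (left in each panel) and the 5 control-guide libraries (right); letters are libraries, the line and bar give mean ± SD. CYBRD1 is nearly lost with the EFNB2 guide, IREB2 is higher, and the A libraries of both guides stand high for HMOX1 and FTH1.

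The import genes were all lower where they could be tested, by very different amounts. CYBRD1 (ENSG00000071967.11, chromosome 2, 171522247 to 171558133, plus strand), which reduces ferric iron at the cell surface and is best known from the gut, had 0.882, 0.657, 0.585, 0.717 and 0.712 CPM in libraries A to E with the EFNB2 guide. With the control guide it had 13.6, 14.97, 15.4, 15.9 and 15.9 CPM. The 2 ranges lie far apart, and the highest EFNB2-guide library and the lowest control library are both A. The log2 fold change was -4.40 (SE 0.09), a 21.2-fold lower level, from 181 counts with the EFNB2 guide and 4090 with the control guide. The ratio of summed counts was 0.0471, with a 95% exact Poisson interval of 0.0403 to 0.0547 that covers counting error only. Only 6 of the 17834 tested genes had a more negative log2 fold change. No other annotated gene of the count table overlaps CYBRD1.

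The libraries in which CYBRD1 was low were the same for many genes. Among 11571 genes averaging 1 or more in log2 CPM, the 5 whose log2 CPM followed that of CYBRD1 most closely over the 10 libraries were BACH2, APOBEC3F, TBL1X, DCBLD1 and NAP1L1, with Pearson r between 0.996 and 0.997. These libraries share the division into guides, which sets most of such an r. BACH2, for example, averaged 25.2 CPM in EFNB2-guide cells and 42.3 CPM in control cells, a far smaller difference than that of CYBRD1. Among the iron genes, r with CYBRD1 was 0.940 for FTL and 0.898 for HMOX1, 0.0638 for FTH1 and -0.983 for IREB2.

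STEAP3, the main ferric reductase of endosomes in red cell precursors, was close to silent. It had 3, 5, 0, 4 and 5 counts in libraries A to E with the EFNB2 guide and 2, 1, 3, 1 and 2 counts with the control guide. These counts overlap, and the ratio of their sums, 17 and 9, was 2.01 with a 95% exact Poisson interval of 0.847 to 5.12, so no difference was detectable at this depth. The antisense gene STEAP3-AS1 overlaps it with 10 counts over all libraries.

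TFRC, the transferrin receptor (ENSG00000072274.12, chromosome 3, 196027183 to 196082189, minus strand), had 344, 339, 333, 334 and 345 CPM with the EFNB2 guide. In control libraries A to E it had 416, 360, 348, 353 and 365 CPM. The groups do not overlap, but the gap between the highest EFNB2-guide library and the lowest control is small beside the distance of control A from the other controls. The log2 fold change was -0.12 (SE 0.04). Without control A it was -0.07, and TFRC did not pass the threshold without EFNB2-guide B (-0.12), C (-0.11) or D (-0.11) or with library totals alone as scaling (-0.10).

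SLC11A2 encodes DMT1, the carrier that moves ferrous iron out of endosomes (ENSG00000110911.15, chromosome 12, 50979401 to 51028566, minus strand). It stood at 28.4, 28.0, 28.2, 26.6 and 26.2 CPM with the EFNB2 guide and at 31.0, 31.1, 29.8, 29.4 and 29.9 CPM with the control guide. All EFNB2-guide libraries lay below all controls, by a log2 fold change of -0.14 (SE 0.03).

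The ferritin chains parted. FTL, the light chain (ENSG00000087086.14, chromosome 19, 48965301 to 48966878, plus strand), fell to 2985, 2567, 2477, 2493 and 2521 CPM in libraries A to E with the EFNB2 guide, against 3407, 3340, 3383, 3231 and 3320 CPM with the control guide. The groups do not overlap, although EFNB2-guide A lies well above the other 4 of its guide, whose mean was 2515 CPM. The log2 fold change was -0.35 (SE 0.04), or 21.8% lower. FTH1, the heavy chain, which holds the ferroxidase activity of the shell (ENSG00000167996.15, chromosome 11, 61959718 to 61967660, minus strand), had 768, 645, 628, 645 and 641 CPM with the EFNB2 guide and 713, 655, 666, 647 and 649 CPM with the control guide. These ranges overlap, and the log2 fold change of -0.0014 (SE 0.05) did not pass, with 2 SE on either side spanning -0.10 to 0.09. Without EFNB2-guide A the FTH1 value was -0.06 and without control A it was 0.02, neither past the threshold.

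Both ferritin genes have many processed copies in the genome that can take or lend reads. Rows for 24 FTH1 pseudogenes held at most 0.536% as many counts as FTH1 in any library, and rows for 16 FTL pseudogenes at most 0.1004% of FTL. BEST1 overlaps FTH1 on the opposite strand, with 3477 counts against 348656 for FTH1.

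SLC40A1, which encodes the exporter ferroportin (ENSG00000138449.10, chromosome 2, 189560579 to 189583758, minus strand), was weakly expressed in both populations. It had 12, 11, 9, 12 and 10 counts with the EFNB2 guide and 73, 21, 27, 30 and 37 counts with the control guide. All EFNB2-guide libraries lie below all controls, and control A is far above the other controls. In CPM the means were 0.213 ± 0.0223 in EFNB2-guide cells and 0.699 ± 0.393 in control cells (SD, n = 5 each). The log2 fold change was -1.70 (SE 0.34), and -1.31 (SE 0.24) without control A. The ratio of summed counts, 54 and 188, was 0.306, and its 95% exact Poisson interval, which covers counting error alone, ran from 0.221 to 0.416. The gene passed the filter through its control libraries.

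HMOX1, the inducible haem oxygenase, frees iron from haem (ENSG00000100292.16, chromosome 22, 35380361 to 35394214, plus strand). It had 102, 71.0, 71.2, 66.8 and 71.1 CPM in libraries A to E with the EFNB2 guide. In the control libraries it had 195, 134, 134, 122 and 134 CPM. The A library was the highest of its group under both guides, 1.45 times the mean of the other 4 with the EFNB2 guide and 1.49 times with the control guide, and the groups did not overlap. The log2 fold change was -0.91 (SE 0.12), that is 46.8% lower with the EFNB2 guide. Without both A libraries it was -0.90 with an SE of 0.03.

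Among the regulators, IREB2 passed the threshold and ACO1 did not. IREB2 encodes IRP2 (ENSG00000136381.12, chromosome 15, 78437431 to 78501456, plus strand), an iron regulatory protein that is degraded when iron is plentiful. It rose to 257, 256, 255, 257 and 254 CPM with the EFNB2 guide, against 162, 178, 177, 183 and 172 CPM with the control guide. This was the only called rise among the 9 genes, with every EFNB2-guide library above every control. The EFNB2-guide values of IREB2 had a coefficient of variation of 0.513%. The log2 fold change was 0.55 (SE 0.03), a 1.47-fold higher level. ACO1 encodes IRP1, which is an aconitase while it holds its iron-sulphur cluster (ENSG00000122729.18, chromosome 9, 32384603 to 32454769, plus strand). It stood at 54.8, 53.7, 51.9, 56.1 and 54.1 CPM with the EFNB2 guide and 45.7, 51.7, 53.2, 53.4 and 54.5 CPM with the control guide. The groups overlap, control A is the lowest of the 10 libraries, and the log2 fold change of 0.07 (SE 0.04) did not pass, with 2 SE on either side spanning -0.02 to 0.15.

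**Figure D2:**
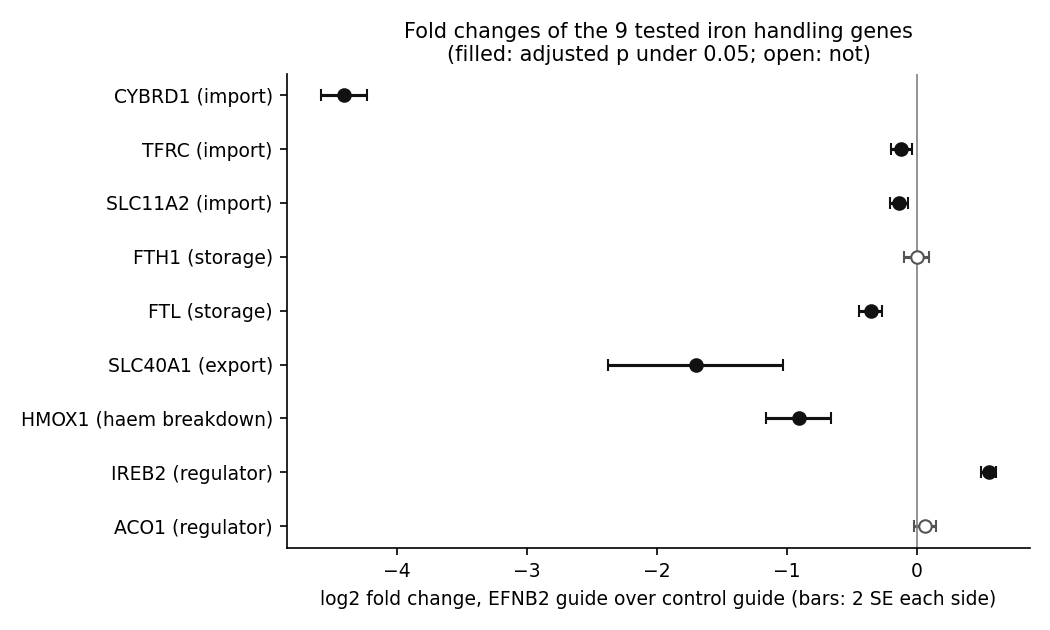
Log2 fold change of the 9 tested iron genes, EFNB2 guide over control guide, with bars of 2 SE on each side; filled points passed an adjusted p of 0.05, open points did not. CYBRD1 lies far left at -4.40, SLC40A1 and HMOX1 follow at -1.70 and -0.91, and IREB2 alone lies right of 0 among the filled points.

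Set on a scale per length (CPM per kilobase of annotated exon, GENCODE 29), the genes spanned a wide range of levels. With the EFNB2 guide the order was FTL (2971), FTH1 (328), TFRC (43.0), HMOX1 (31.7), IREB2 (23.7), ACO1 (7.16), SLC11A2 (2.71), CYBRD1 (0.137), SLC40A1 (0.0492) and STEAP3 (0.0146), and the ranges of neighbours in this order did not overlap, although HMOX1 in library A and the lowest TFRC value nearly touched. With the control guide HMOX1 (59.7) and TFRC (46.7) changed places with overlapping ranges. There CYBRD1 (2.93 ± 0.185) was level with SLC11A2 (2.98 ± 0.0743; SD, n = 5 each), and their ranges also overlap, whereas with the EFNB2 guide CYBRD1 lay far below SLC11A2 and nearer to SLC40A1. The other genes kept their places, FTL at 3800, FTH1 at 328, IREB2 at 16.1, ACO1 at 6.84, SLC40A1 at 0.161 and STEAP3 at 0.00727 CPM per kilobase. The annotated exon length is not the length of the transcripts present, so these levels are approximate.

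Ratios within a library, which need no scaling between libraries, compare import, storage and export. The FTH1 to FTL count ratio had a median of 0.254 (0.251 to 0.259) with the EFNB2 guide and 0.197 (0.195 to 0.209) with the control guide. These ranges do not overlap, A libraries included, and FTL lies lower beside FTH1 with the EFNB2 guide in every library. The TFRC to FTL ratio was 0.134 (0.115 to 0.137) with the EFNB2 guide and 0.109 (0.103 to 0.122) with the control guide. That ratio overlaps through the A libraries, the lowest of the EFNB2 guide and the highest of the controls. The TFRC to FTH1 ratio also overlaps, at 0.525 (0.448 to 0.538) and 0.549 (0.523 to 0.583). All these ratios were taken with a prior count of 2 added to each gene, which matters where counts are low. The ratio of TFRC to SLC40A1 was 1351 (1177 to 1471) with the EFNB2 guide and 599 (293 to 808) in controls. With a prior count of 0.5 its medians were 1526 and 629. The log2 ratio of SLC11A2 to SLC40A1 was 6.78 ± 0.147 in EFNB2-guide cells and 5.49 ± 0.641 in control cells (SD, n = 5 each), and neither ratio overlaps between the guides. Both rest on the low counts of SLC40A1, 9 to 12 in each EFNB2-guide library, since TFRC and SLC11A2 were themselves lower with the EFNB2 guide. The IREB2 to ACO1 ratio was 4.69 (4.58 to 4.92) with the EFNB2 guide and 3.42 (3.15 to 3.55) with the control guide.

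**Figure D3:**
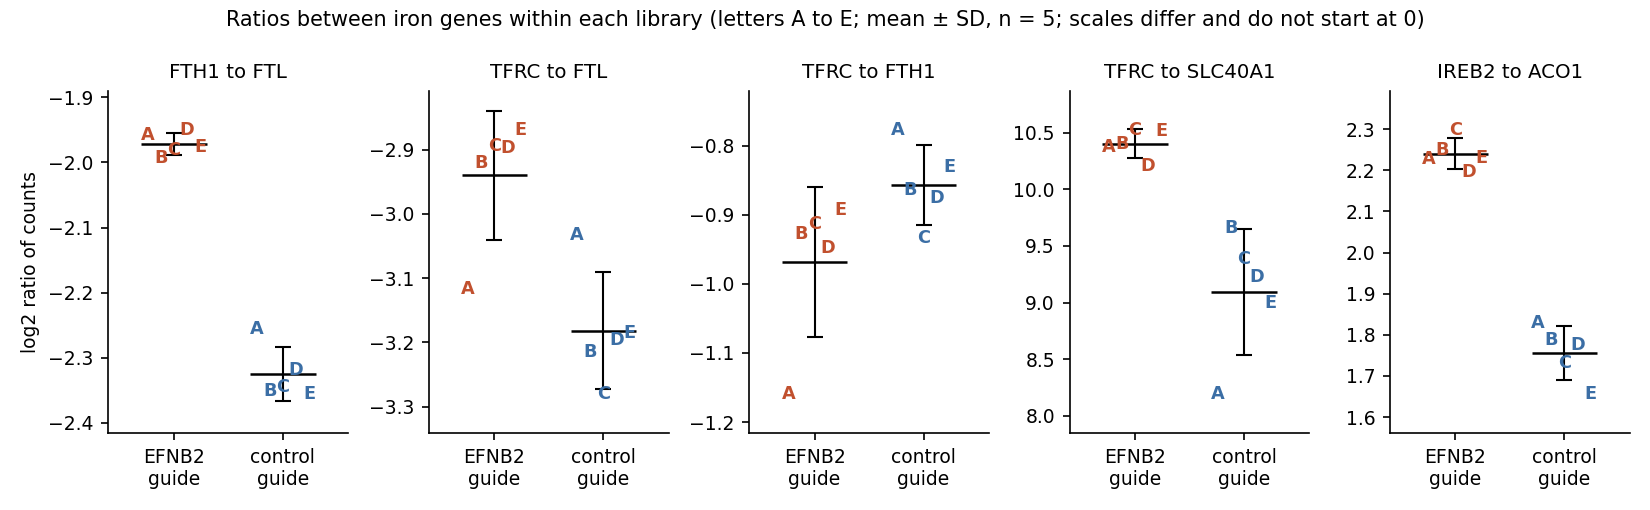
Log2 ratio of the counts of a pair of iron genes in each library (letters), with mean ± SD, for EFNB2-guide libraries (left in each panel) and control-guide libraries (right); the scales differ between panels and do not start at 0. FTH1 to FTL, TFRC to SLC40A1 and IREB2 to ACO1 separate the guides, and the A libraries lie apart in the TFRC to ferritin ratios.

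Around IREB2, TFRC, CYBRD1 and SLC40A1, more neighbours were called in the direction of the gene itself than against it. Over all tested genes 22.8% were called higher and 22.6% lower. Within 1 Mb of IREB2, 13 of 19 tested genes were called higher and 1 lower, with a median log2 fold change of 0.34 beside 0.55 for IREB2. Over chromosome 15 as a whole, 398 of 623 tested genes (63.9%) were called higher, with a median of 0.31. Within 1 Mb of TFRC, near the end of the long arm of chromosome 3, 18 of 39 tested genes were called lower and 2 higher, with a median of -0.22 beside -0.12 for TFRC. Over chromosome 3, 25.9% of 948 tested genes were called lower and 20.6% higher, with a median of -0.01. Around CYBRD1, 5 of 16 neighbours were called lower and 1 higher, with a median of -0.09. All of those neighbours lay between -0.70 and 1.36, so the CYBRD1 difference was not shared by the genes beside it. Around SLC40A1 8 of 18 were lower and 1 was higher, with a median of -0.10. Over chromosome 2, which holds CYBRD1 and SLC40A1, 28.2% of 1141 tested genes were called lower and 19.2% higher, with a median of -0.03. The share called lower around CYBRD1 is close to that of its chromosome. The part of these regions in the values of IREB2, TFRC, CYBRD1 and SLC40A1 was not tested. Around the remaining genes the medians were 0.11 (FTH1, 18 higher and 6 lower of 55), 0.01 (FTL, 22 and 17 of 87), 0.11 (HMOX1, 6 and 3 of 14), 0.03 (SLC11A2, 6 and 6 of 24), 0.03 (ACO1, 4 and 3 of 16) and 0.09 (STEAP3, 1 and 2 of 8).

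**Figure D4:**
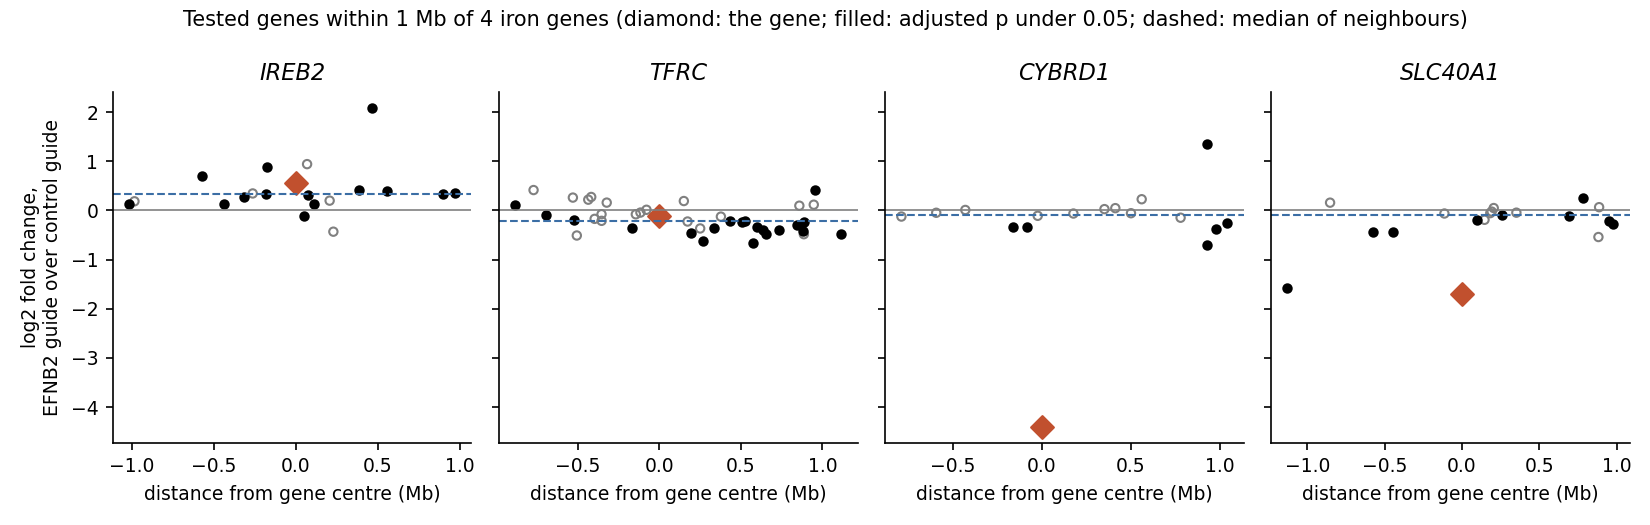
Log2 fold change (EFNB2 guide over control guide) of tested genes within 1 Mb of IREB2, TFRC, CYBRD1 and SLC40A1 against their distance from the gene's centre; diamonds are the iron genes, filled points passed an adjusted p of 0.05, and the dashed line is the median of the neighbours. IREB2 (0.55) and TFRC (-0.12) lie above their neighbours' medians of 0.34 and -0.22, each on the same side of 0 as its median. CYBRD1 at -4.40 lies far below all of its neighbours.

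Other genes of iron and haem metabolism, 141 in 11 lists drawn up from their known roles, changed in both directions, most of them by small amounts. Of the 118 that were tested, 26 were higher and 38 lower with the EFNB2 guide, with a median log2 fold change of -0.02, beside 22.8% higher and 22.6% lower and a median of 0.01 over all tested genes. Adjusted p-values of single genes below are from the edgeR test over all genes.

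Relatives of CYBRD1 moved little beside it. In the list of other ferric reductases and cytochrome b561 proteins, 3 of 6 tested genes rose and 1 fell, with a median of 0.08. FRRS1, a ferric-chelate reductase, rose to 11.1 CPM ± 0.594 against 7.70 CPM ± 0.251 in controls (SD, n = 5 each; log2 fold change 0.53, SE 0.05, adjusted p = 8.33e-07), and CYB561D2 rose slightly (0.20, adjusted p = 0.0291). STEAP1B fell (-0.73, SE 0.09) at a low level, 1.77 CPM in EFNB2-guide cells and 2.94 CPM in control cells. STEAP1, STEAP2 and STEAP4, close relatives of STEAP3, were not tested, with 42, 5 and 3 counts over all libraries. CYB561D2 did not pass without EFNB2-guide C or without control B, C or E (adjusted p from 0.0571 to 0.0759), nor without a filter (0.0519).

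Among other uptake and transport genes 3 of 11 tested genes fell and 1 rose, with a median of -0.05. The falls included both ZIP carriers that can bring iron into cells without transferrin. SLC39A8 averaged 86.3 ± 2.91 CPM in EFNB2-guide cells and 108 ± 8.97 CPM in control cells (SD, n = 5 each; -0.33, adjusted p = 4.82e-05), and SLC39A14 at 45.8 ± 1.84 and 55.0 ± 1.36 CPM (-0.26, adjusted p = 7.28e-06). The third was TF, transferrin itself, at 0.161 CPM ± 0.0632 and 0.553 CPM ± 0.217, named after its value was seen because it lies under the level set for naming. The mitochondrial importer SLC25A28 was the rise (0.21, adjusted p = 0.0390), and it did not pass without any 1 of the B to E libraries of either guide or with the replicate block. The falls numbered 5 without the A library of either guide. In iron storage and ferritin turnover 3 of 5 fell and 1 rose (median -0.08), with the vesicle protein CD63 (-0.28, adjusted p = 0.000186) and the autophagy receptor TAX1BP1 (-0.13, adjusted p = 0.000138) lower. HERC2, a ubiquitin ligase for the ferritin receptor NCOA4, was higher (0.49, adjusted p = 1.67e-05). It lies on chromosome 15 and has duplicated copies there, so its counts are uncertain. The rises numbered 2 without EFNB2-guide E.

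Of 6 tested genes of export and the hepcidin axis, 3 rose and 1 fell (median 0.09). The inhibitor SMAD7 rose to 33.8 CPM ± 1.55, against 22.5 CPM ± 0.463 in controls (SD, n = 5 each; 0.59, SE 0.04, adjusted p = 4.84e-09), and BMP6, which drives hepcidin in the liver, rose to 155 CPM ± 0.706 against 137 CPM ± 7.44 (0.18, adjusted p = 0.000378). SMAD5 was slightly lower (-0.09, adjusted p = 0.0304) and did not pass without EFNB2-guide B, D or E or control C, D or E (adjusted p from 0.0542 to 0.0870). With library totals alone (0.0519) or the replicate block (0.0610) it did not pass either. The falls of this list numbered 2 without EFNB2-guide C or control A. The copper ferroxidases HEPH and CP were not tested, with 26 and 19 counts over all libraries, and the related HEPHL1 did not pass (-0.93, SE 0.38, adjusted p = 0.0565; 158 counts over all libraries).

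Haem genes were divided. In haem synthesis 4 of 12 fell and 2 rose (median -0.06). The last pair of enzymes of the pathway fell together, PPOX at 61.2 ± 1.58 CPM in EFNB2-guide cells and 73.4 ± 1.72 CPM in control cells (SD, n = 5 each; -0.26, adjusted p = 1.41e-06) and ferrochelatase, FECH, at 90.7 ± 0.739 and 108 ± 2.50 CPM (-0.26, adjusted p = 3.72e-07). CLPX, a mitochondrial unfoldase that acts on ALAS enzymes, rose (0.26, adjusted p = 1.20e-06) and lies on chromosome 15, and ALAD rose slightly (0.08, adjusted p = 0.0193). ALAD did not pass without EFNB2-guide B (adjusted p = 0.0541) or control E (0.0506), with the replicate block (0.0663), with low genes kept in (0.0999) or on the authors' normalized values (0.0941). In haem transport and breakdown 4 of 12 rose and 3 fell (median -0.05). Biliverdin reductase BLVRA, the step after HMOX1, fell (-0.43, SE 0.04, adjusted p = 7.47e-07), as did the haem carrier SLC48A1 (-0.31, adjusted p = 4.78e-06), while the haem exporters ABCG2 (0.46, adjusted p = 4.97e-07) and FLVCR1 (0.18, adjusted p = 0.00225) rose.

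Genes that build iron-sulphur clusters in mitochondria gave 8 falls and 3 rises among 18 (median -0.08). NUBPL, an assembly factor for respiratory complex I, fell to 14.0 CPM ± 0.738 against 17.5 CPM ± 0.713 in controls (SD, n = 5 each; -0.32, SE 0.05, adjusted p = 3.45e-05). IBA57 (0.21, adjusted p = 0.0143) and BOLA3 (0.15, adjusted p = 0.0185) rose. In the cytosolic assembly list 4 of 11 rose and 2 fell (median 0.05), NDOR1 (0.29, adjusted p = 0.000844) and CIAO3 (0.21, adjusted p = 0.00278) upward and NUBP1 (-0.17, adjusted p = 0.000194) and GLRX3 (-0.15, adjusted p = 0.00299) downward. Of 6 tested genes for the turnover of iron regulatory proteins and for further RNAs with an iron-responsive element, 1 rose and 2 fell (median 0.03). FBXL5, the iron-sensing ligase subunit that marks IRP2 for degradation, rose slightly (0.12, adjusted p = 0.00812), and CUL1 passed narrowly as lower (-0.06, adjusted p = 0.0491). CUL1 did not pass when any 1 of the B to E libraries of either guide was left out. It also missed the threshold on library totals alone (adjusted p = 0.110), with low genes kept in (0.133) and with the replicate block (0.132). In each of these settings the falls of this list numbered 0. The rises numbered 2 without EFNB2-guide A.

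HMOX1, FTL, FTH1 and SLC40A1 are known targets of the stress factor NRF2 and its opponent BACH1. In the list of that axis, 6 of 17 tested genes fell and 2 rose (median 0.00). NFE2L2, which encodes NRF2, did not pass (0.06), nor did NQO1 (0.05) and SRXN1 (0.11) of the list. BACH1 itself was lower (-0.19, adjusted p = 0.000358). Whether the activity of either factor differed was not tested. The glutathione synthesis subunit GCLM fell to 50.5 CPM ± 3.09 against 61.7 CPM ± 0.821 (SD, n = 5 each; -0.29, adjusted p = 1.07e-05) and the malic enzyme ME1 fell (-0.27, adjusted p = 0.00442). MAFF rose (0.22, adjusted p = 0.0215), but did not pass without control B, D or E (adjusted p from 0.0503 to 0.0551). The rises of this list numbered 4 without both A libraries. Among ferroptosis genes, which govern iron-driven lipid peroxidation, 5 of 14 fell and 2 rose (median -0.02). The lipoxygenase ALOX5 fell to 9.05 CPM ± 0.674 against 19.7 CPM ± 0.437 in controls (SD, n = 5 each; -1.12, SE 0.05, adjusted p = 1.15e-10), and the reductase POR fell (-0.14, adjusted p = 0.00840). LPCAT3 (0.26, adjusted p = 0.000618) and the mitochondrial pore VDAC3 (0.09, adjusted p = 0.0122) rose.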

How the data were processed

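RNA was measured in 10 libraries of U266 cells, 5 for each guide, grouped by the genotype given in the labels. Per the labels' protocols, poly(A) RNA was made into strand-specific libraries and sequenced as read pairs. GRCh38, STAR 2.27a, Partek and DESeq2 are named, without a role, per the submitters' processing notes. The annotation is not given in the sources used here, nor is the strand setting of the counting, so overlapping genes on opposite strands may share reads.

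The deposited counts are raw reads by gene, and all main results use them. The authors also deposited a normalized signal, used only as an alternative. On inspection each value is the count with 0.0001 added and multiplied by a factor of its library, to within 0.000497% where counts exceed 100. Of the table's lines, 3 named no gene (at most 7.00e-05% of a library) and were left out, and 0 sample columns went unused.

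Counts were filtered with filterByExpr, scaled by TMM and tested with the quasi-likelihood test of edgeR 4.0.16 (R 4.3.3), guide as the only term, with Benjamini-Hochberg adjustment over 17834 genes. At total counts of 47268072 to 56513548, 3 counts equal 0.0537 to 0.0627 CPM. Ratios used a prior count of 2. Intervals on counts cover counting error only. The code was tested on simulated data.

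The members and lists were chosen with earlier results of these data known. Named were the 10 members, up to 2 rises and 2 falls per list by size (mean log2 CPM of at least 1), and the 5 genes most like CYBRD1. TF, the untested or uncalled STEAP and copper oxidase genes, SDC1, CD38, NFE2L2, NQO1, SRXN1 and BACH1 were named after their values were seen. Alternatives were DESeq2 1.42.0, limma-voom (limma 3.58.1), other scalings, filters and priors, the normalized signal as log2(value + 1), immunoglobulin genes left out, a replicate block, summed pseudogene counts, a 3 Mb window, and each library or both A libraries left out. Positions are from GENCODE 29 on GRCh38. Protein sequences were not used here, and a few genes that the naming rule or a marker list holds are not reported here.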

Additional observations from a re-analysis of the deposited data

Results flagged for a closer look

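In 36 series of 5 libraries (each iron gene, EFNB2 and each ratio under each guide), 9 had 1 library far from the other 4 by Dixon's criterion. In all 9 it was library A. Chance meets the criterion in about 1 in 20 series. These series share libraries, and the ratios share genes with the other series, so the 9 cannot be weighed against that rate. With the EFNB2 guide, library A stood high for FTH1 (768 CPM), FTL (2985 CPM) and HMOX1 (102 CPM), and low for the log2 ratio of TFRC to FTH1 (-1.16) and of TFRC to FTL (-3.12). With the control guide, library A stood high for TFRC (416 CPM), FTH1 (713 CPM), SLC40A1 (1.38 CPM) and HMOX1 (195 CPM). HMOX1 and FTH1 were thus apart in library A under both guides. What sets the A libraries apart was not tested.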

How the results depend on the processing

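The numbers of genes called with the EFNB2 guide, 4072 higher and 4026 lower, ranged over the alternatives from 3251 to 4992 higher and from 3337 to 4862 lower, each within 1.5 times those numbers. CYBRD1, SLC11A2, FTL, SLC40A1, HMOX1 and IREB2 kept their direction and their call in each alternative that gave a value, and ACO1 was never called. The log2 fold change of CYBRD1 ran from -4.54 without both A libraries to -3.26 on the deposited normalized values as log2(value + 1), a scale that understates low genes. TFRC did not pass with library totals alone (-0.10), and with single libraries left out it ran from -0.14 to -0.073. It did not pass without EFNB2-guide B, C or D. FTH1, not called in any alternative, changed sign with library totals alone (0.014) and with only genes kept that reach 1 CPM in 5 or more libraries (0.0045), and ran from -0.055 to 0.024 with single libraries left out. With the replicate block 3425 genes were called higher and 3337 lower, and no iron gene changed its call. Across genes, deviations of same-lettered libraries from their group means correlated at -0.52 to 0.03, and 0 of 5 letters correlated best with their own, so the letters were not taken to pair the libraries. HMOX1 did move by letter under both guides, and its SE was 0.03 with the block, against 0.12 without. For 44 further named genes, 823 values kept direction and call and 57 lost the call. Ratios with a prior count of 0.5 and medians of neighbours within 3 Mb kept their direction. The cause of these changes was not tested. Depth limits STEAP3 most, with 26 counts in all.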
